A study of Mus musculus with 6 samples.

Results

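The genes described here are 9 transcription factors that build and pattern the somite: Tcf15, Meox1, Meox2, Foxc1, Foxc2, Uncx, Tbx18, Nkx3-2 and Scx. They were found by gene symbol among the 34967 probes for transcripts on a one-colour CodeLink mouse array. Each had 1 probe, so 9 of the 18563 genes named on the array are covered, and all 9 were among the 14315 genes tested. RNA came from the part of the mouse embryo below the forelimb level at embryonic day 9.5, when only the posterior neuropore was still unclosed. For stage, the labels gave a mean number of somite pairs, the same for every sample of both genotypes, and not a count per sample. Whether the samples differed in somite stage was therefore not tested. The groups were 3 Splotch null samples and 3 wild-type samples, all of a strain labelled LMBc. The genes were picked with the genotype differences of these arrays already known. Their differences are therefore given as descriptions, and their number and direction support nothing by themselves.

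Somites are epithelial blocks of paraxial mesoderm that bud from the presomitic mesoderm on both sides of the neural tube. Tcf15 (paraxis) is needed for them to become epithelial. Each block then divides into a dorsal dermomyotome, where Pax3 acts and from which muscle and dermis arise, and a ventral sclerotome, which forms vertebrae and ribs. Meox1 and Meox2 act in both compartments, Foxc1 and Foxc2 in the paraxial mesoderm as a whole, Tbx18 in the anterior and Uncx in the posterior compartment of each somite, Nkx3-2 in the sclerotome and Scx in the tendon precursors at its edge.

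Splotch is a mutation of Pax3. The labels did not give the allele, and did not say whether a sample was 1 embryo or several, so the spread between samples may be partly technical. Pax3 transcript averaged 10.62 ± 0.10 in Splotch null and 10.45 ± 0.41 in wild type (log2 intensity, SD, n = 3 each), which does not check the mutation. One label field named the anterior neural tube, while the tissue field and the dissection protocol named the posterior part. Of 5 markers of the caudal embryo, 4 were above background on all 6 arrays, and T (brachyury) was above it on the 5 arrays with a usable spot. The median background-subtracted intensity of an array was 86.4 to 121.1 in Splotch null and 84.3 to 116.3 in wild type, and the number of arrays limits the precision. Splotch null 2 stood apart in genes of the visceral endoderm and yolk sac. The 7 tested of 8 such markers summed to a raw intensity of 51492 on it, against 2562 and 1233 on Splotch null 1 and 3 and 2859 to 5680 on the wild-type arrays. Its 5 neural tube markers summed to 839, against 2997 and 6449 on Splotch null 1 and 3 and 2566 to 3619 on wild type. None of these 13 genes was at background on every array. In tissue pieces like these, fewer cells of a type and less RNA per cell cannot be told apart.

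Levels are given as log2 of the background-subtracted intensity raised by 50 and quantile-normalized between arrays, and a difference is the Splotch null mean minus the wild-type mean on that scale. The added 50 makes differences of dim genes smaller than the true change. No level of one gene is set against that of another, because each probe has its own brightness. With limma and Benjamini-Hochberg adjustment at 0.05, 0 of the 9 somite regulators and 0 of the 14315 genes (0.0%) were called. Before adjustment 204 genes (1.43%) were below 0.05, and Tcf15 was the 1 somite regulator among them. The 9 genes were chosen with this contrast known, so nothing is read from that.

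Tcf15 showed the clearest separation of the 9 genes. Its log2 intensity was 9.14, 9.22 and 8.85 on Splotch null 1, 2 and 3, against 9.77, 9.56 and 10.60 on wild type 1, 2 and 3. Every Splotch null array lay below every wild-type array. On the raw scale the probe (GE33769) read 459, 506 and 505 in Splotch null, against 952, 687 and 1372 in wild type. The means were 9.07 ± 0.20 in Splotch null and 9.98 ± 0.55 in wild type (SD, n = 3 each), a difference of -0.90 (SE 0.27, 95% confidence interval -1.54 to -0.26), or 1.87-fold lower in Splotch null. The 3 wild-type arrays themselves spanned 1.04, more than the difference between the means, and wild type 3 was the highest. The difference shrank to -0.59 when wild type 3 was left out. When Splotch null 2, the array rich in yolk sac transcripts, was left out it was -0.98. Tcf15 read at least 22.2 times the mean of the negative control spots on every array, so none of its values was near background. Among the 8 somite regulators measured on all arrays it was the 1 whose genotypes did not overlap, where 1.89% of 13766 such genes were dimmer in Splotch null without overlap, 3.22% were brighter without overlap and 5.11% did not overlap in either direction. Its choice used this contrast, so nothing is read from that count.

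**Figure D1:**
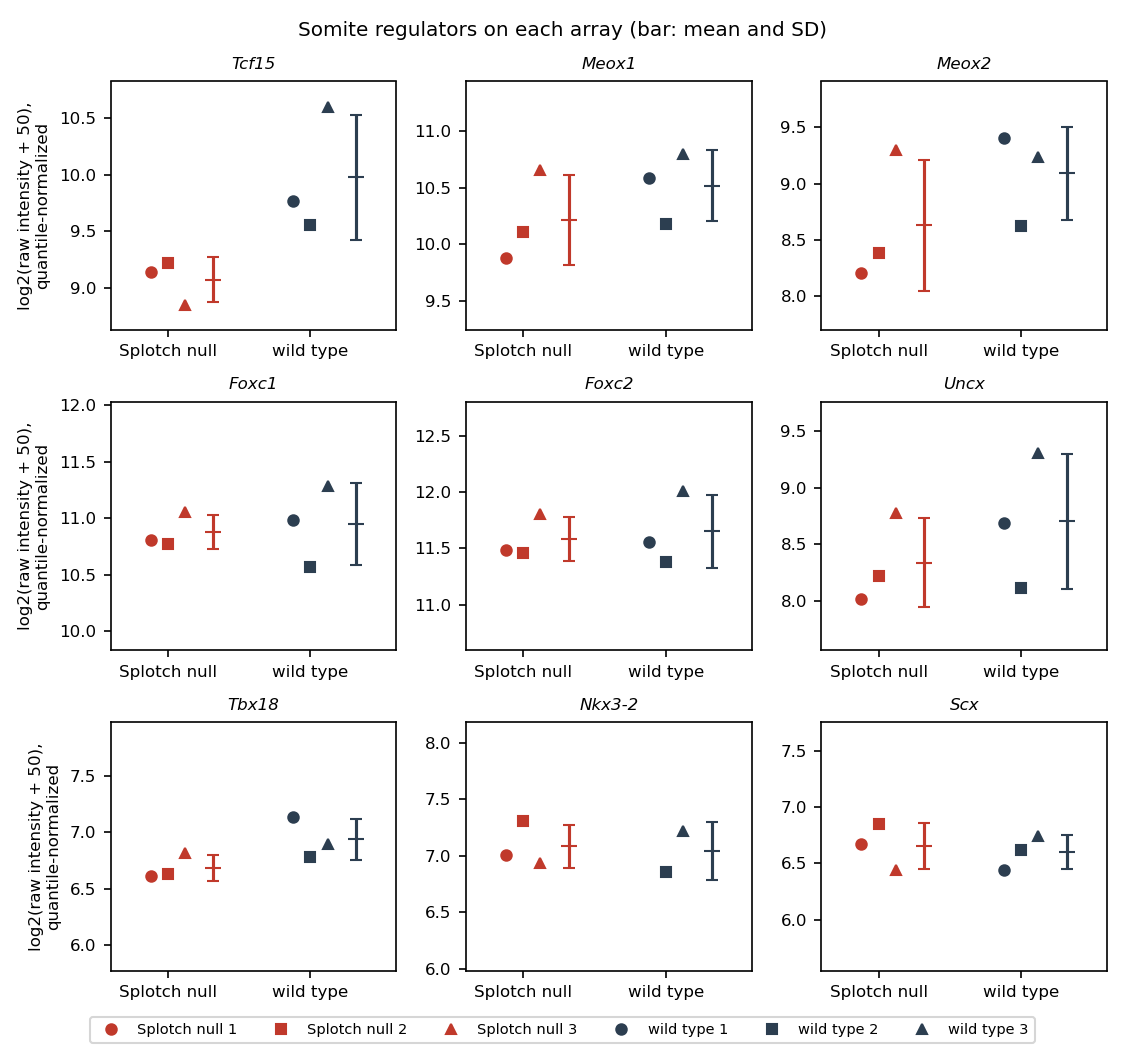
Log2 intensity (vertical axis, spanning the same 2.2 log2 units in each panel) of the 9 somite regulators on each array, with Splotch null in red at the left and wild type in dark blue at the right. Points are single arrays, with the marker shape giving the replicate number, bars are the mean and SD, and the panel of Nkx3-2 lacks wild type 1. Tcf15 is the panel in which the red points, 8.85 to 9.22, all lie below the blue points, 9.56 to 10.60.

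Meox1 and Meox2 are paralogous homeobox genes that together are needed for normal somite development. Meox1 had 9.88, 10.11 and 10.66 on Splotch null 1, 2 and 3, against 10.58, 10.18 and 10.80 on wild type 1, 2 and 3. Meox2, also known for its role in limb muscle, had 8.21, 8.39 and 9.29 in Splotch null, against 9.40, 8.63 and 9.24 in wild type. In both genes Splotch null 1 and 2 were the lowest arrays and Splotch null 3 lay within the wild-type range, so the genotypes overlapped. The difference was -0.30 (SE 0.24) for Meox1 and -0.46 (SE 0.32) for Meox2, with 95% confidence intervals of -0.88 to 0.27 and -1.22 to 0.30. Leaving out single arrays moved these values widely. Without Splotch null 3 they were -0.53 and -0.79, and without Splotch null 1 they were -0.14 and -0.25. The Pearson correlation with the log2 array median over the 6 arrays was 0.42 for Meox1 and 0.64 for Meox2. With the log2 array median as a covariate the differences were -0.28 and -0.41, and without the 2 brightest arrays, Splotch null 3 and wild type 1, they were -0.49 and -0.64.

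The forkhead genes Foxc1 and Foxc2, which act redundantly in paraxial mesoderm and also in vessels, read 71.5 to 112 and 127 to 186 times the negative controls. Foxc1 had 10.81, 10.77 and 11.05 on Splotch null 1, 2 and 3, against 10.99, 10.57 and 11.29 on wild type 1, 2 and 3. Foxc2 had 11.49, 11.46 and 11.80 in Splotch null, against 11.56, 11.38 and 12.01 in wild type. For each gene all 3 Splotch null arrays lay inside the wild-type range, which ran from wild type 2 at the bottom to wild type 3 at the top. The differences were -0.07 (SE 0.20) for Foxc1 and -0.07 (SE 0.19) for Foxc2, with 95% confidence intervals of -0.54 to 0.40 and -0.52 to 0.39, so changes of that size in either direction are not shown to be absent. Their direction rested on wild type 3, without which they were 0.10 and 0.11.

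Uncx, a homeobox gene that maintains the posterior compartment of the somite and its pedicle-forming sclerotome, had 8.01, 8.22 and 8.77 on Splotch null 1, 2 and 3. On wild type 1, 2 and 3 it had 8.69, 8.11 and 9.30. The genotypes overlapped, because wild type 2 lay between Splotch null 1 and 2. The difference was -0.37 (SE 0.32, 95% confidence interval -1.13 to 0.40). Leaving out wild type 3 gave -0.07, and leaving out wild type 2 gave -0.66. Tbx18, a T-box gene that maintains the anterior compartment, was dim, at 1.99 to 4.60 times the negative controls. It had 6.61, 6.63 and 6.82 in Splotch null, against 7.13, 6.78 and 6.90 in wild type, where Splotch null 3 just exceeded wild type 2. Its difference was -0.25 (SE 0.14, 95% confidence interval -0.58 to 0.08), which depended on the amount added before the logarithm, with -0.39 at 10 and -0.11 at 200. The markers of the opposite compartments thus had differences of the same sign, neither larger than the wider of its own spreads within a genotype, 1.19 for Uncx and 0.36 for Tbx18.

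Upstream sequences from RefSeq (GRCm38.p6) were at hand for 5 of the 9 genes, and the 3 shown are those of the genes with the larger differences among these 5 (Meox2, Uncx and Tbx18). Each is the stretch before the annotated gene start, 5′ to 3′ on the gene's strand, with 2 motifs in capitals. One is the E-box CANNTG, the kind of site that basic helix-loop-helix factors such as Tcf15 and Scx bind. The other is the homeodomain core TAATTA. Both motifs read the same on the opposite strand, and no match overlapped another.
Meox2, chr12:37108290-37108539, plus strand: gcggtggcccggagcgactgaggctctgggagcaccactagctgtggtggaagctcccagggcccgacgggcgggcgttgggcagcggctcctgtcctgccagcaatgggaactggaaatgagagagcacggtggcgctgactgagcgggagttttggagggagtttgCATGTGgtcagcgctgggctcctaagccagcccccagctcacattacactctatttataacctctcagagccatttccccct
Tbx18, chr9:87731261-87731510, minus strand: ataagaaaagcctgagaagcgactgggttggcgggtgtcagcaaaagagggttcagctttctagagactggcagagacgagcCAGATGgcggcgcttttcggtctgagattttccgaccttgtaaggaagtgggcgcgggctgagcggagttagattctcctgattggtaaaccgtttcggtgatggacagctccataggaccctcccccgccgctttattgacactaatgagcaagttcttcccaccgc
Uncx, chr5:139543648-139543864, plus strand: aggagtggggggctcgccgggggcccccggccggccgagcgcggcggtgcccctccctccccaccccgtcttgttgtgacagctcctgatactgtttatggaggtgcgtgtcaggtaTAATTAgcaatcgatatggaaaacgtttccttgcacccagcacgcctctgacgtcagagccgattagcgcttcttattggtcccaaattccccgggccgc
Meox2 and Tbx18 each held 1 E-box in 250 bases, as did Nkx3-2, and Foxc1 held 0. An E-box was present in 68.3% of 19588 promoters of that length, so such a match is common, and it is a description of letters only. Uncx held 1 TAATTA and 0 E-boxes in its 217 bases, where 4.84% of promoters of that length held TAATTA and 63.2% an E-box. The motif TAATTA was not found in the other 4 windows.

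Nkx3-2 and Scx, like Tbx18, were read close to background. Nkx3-2, a homeobox gene through which hedgehog signals promote cartilage formation in the sclerotome, had 7.01, 7.31 and 6.94 on Splotch null 1, 2 and 3, against 6.86 and 7.22 on wild type 2 and 3. Its spot on wild type 1 carried quality flag I and was left out, so the wild-type mean rests on 2 arrays. The difference was 0.04 (SE 0.19, 95% confidence interval -0.41 to 0.50). Scx (scleraxis), a basic helix-loop-helix factor of tendon precursors, had 6.67, 6.85 and 6.44 in Splotch null, against 6.44, 6.62 and 6.74 in wild type. The genotypes overlapped, and the difference was 0.05 (SE 0.15, 95% confidence interval -0.30 to 0.41). Scx read only 1.89 to 2.86 times the negative controls, and its level ran against array brightness, with a Pearson correlation of -0.92 with the log2 array median over 6 arrays. Both genes changed sign when single arrays were left out, Nkx3-2 between -0.14 and 0.23 and Scx between -0.05 and 0.16.

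Over the 9 genes, 7 had a lower and 2 a higher mean in Splotch null, with a median difference of -0.25. Over all genes tested 45.0% had a lower mean in Splotch null and the median difference was 0.02. The counts describe a list chosen with these values known. For all 9 genes the wider of the 2 ranges within a genotype exceeded the difference between genotypes. The share of all genes for which this holds was not counted. Over all genes the median absolute difference was 0.09 and the median range over the arrays was 0.52. Nothing about these 9 genes is therefore read from it.

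**Figure D2:**
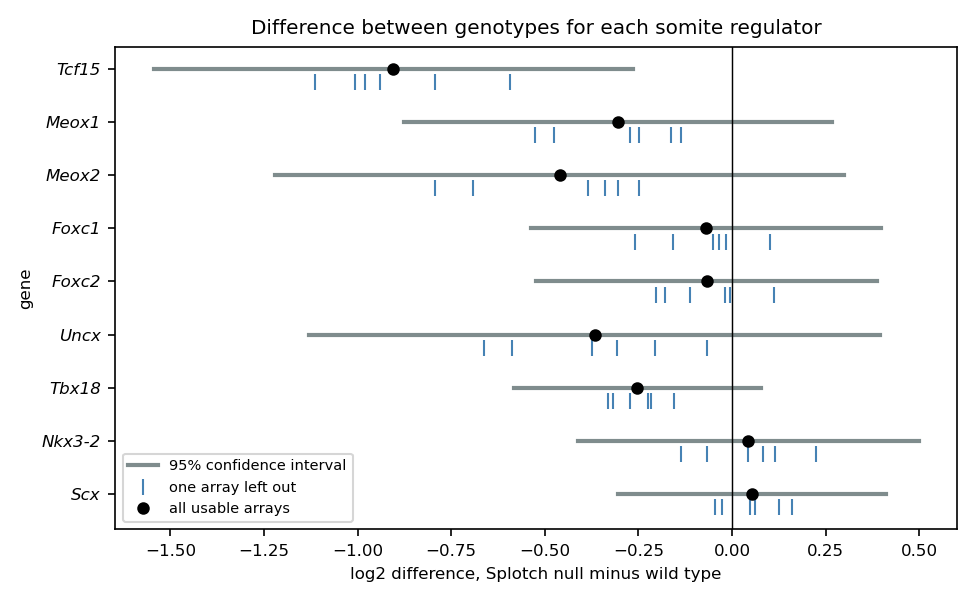
Log2 difference, Splotch null minus wild type (horizontal axis), for each of the 9 somite regulators (vertical axis), with black points for all usable arrays, grey lines for limma's 95% confidence interval and blue ticks for the value with 1 array left out. The ticks of Tcf15 run from -1.11 to -0.59, while those of Foxc1, Foxc2, Nkx3-2 and Scx lie on both sides of 0.

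The 9 genes fell into different courses over the arrays. Each gene's level was set against its own mean over the arrays. On wild type 3 all 8 regulators other than Tcf15 were above their own means, with a median of 0.38, and Tcf15 was above its mean by 1.08. On wild type 2 all 8 were below their means (median -0.22) and Tcf15 was at 0.03. On Splotch null 3 they parted: 6 of the other 8 genes were above their own means, with a median of 0.16, while Tcf15 had its lowest value of the series at -0.67. On Splotch null 1 and 2 the median of the other 8 was -0.17 and -0.17, and Tcf15 stood at -0.38 and -0.30. Relative to Meox1, Tcf15 was at 0.10, -0.04 and -0.96 on Splotch null 1, 2 and 3, against 0.03, 0.22 and 0.64 on wild type 1, 2 and 3, so by this measure the genotypes overlapped and Splotch null 3 alone was far below. The neural tube markers, 5 of 5 measured, were also high on Splotch null 3, with a median of 0.71 above their own means, and low on Splotch null 2 at -1.28. The median of the 5 caudal embryo markers ran opposite to Tcf15 on the arrays where Tcf15 was lowest and highest. It was 0.50 on Splotch null 3, although Cdx2 (11.07) was below its own mean there, and -0.31 on wild type 3. It was 0.30 and -0.23 on Splotch null 1 and 2, and -0.06 and 0.04 on wild type 1 and 2. All 5 had a higher mean in Splotch null. Whether differences in dissection or makeup of the pieces bear on these courses was not tested.

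**Figure D3:**
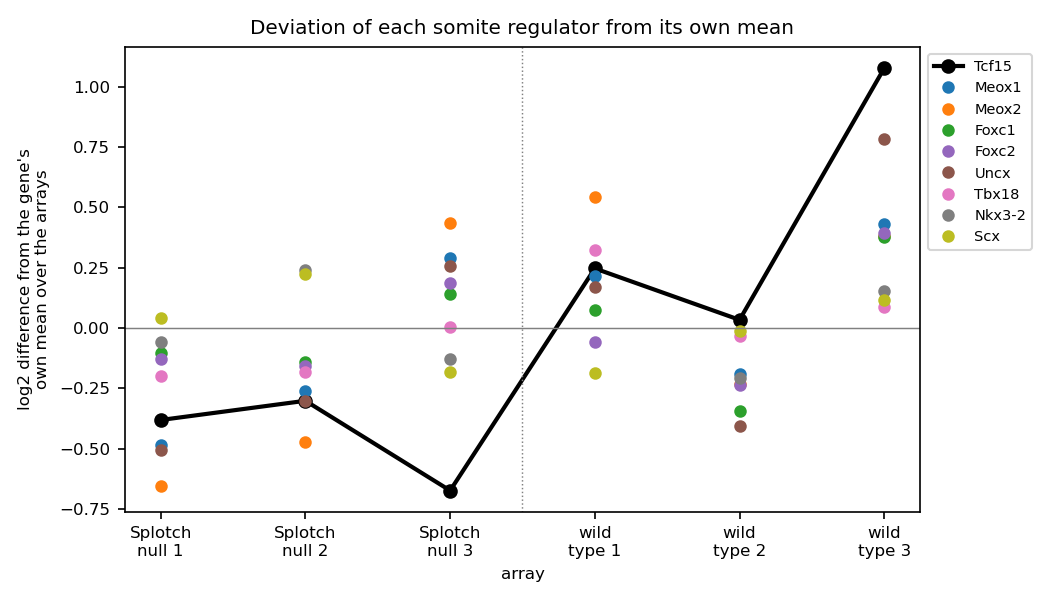
Log2 difference of each somite regulator from its own mean over the arrays (vertical axis) on each of the 6 arrays (horizontal axis, Splotch null left of the dotted line, wild type right of it). The black line is Tcf15 and coloured points are the other genes. On Splotch null 3 Tcf15 stands at -0.67 while Meox2 stands at 0.43 and Meox1 at 0.29.

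Pairs of genes differed in how closely they followed each other. Over 6 arrays, which share their RNA preparation and brightness between genes, the Pearson correlation was 0.95 between Meox1 and Meox2, 0.95 between Meox1 and Uncx, 0.95 between Foxc1 and Foxc2, and 0.93 between Uncx and Foxc2. It was 0.87 between Meox2 and Tbx18, 0.82 between Meox1 and Foxc1, 0.71 between Meox2 and Foxc1, and 0.66 between Meox2 and Foxc2. Tcf15 correlated with Meox1, Meox2, Uncx, Foxc1 and Foxc2 at 0.40 (Meox2) to 0.64 (Uncx), so its highest value was close to the lowest among those 5 genes. Low values were not particular to Tcf15. Tbx18 correlated at 0.34 with Foxc2, 0.48 with Foxc1, 0.62 with Uncx and 0.74 with Meox1. Nkx3-2 correlated at 0.12 with Meox1 over 5 arrays. Scx correlated at -0.63 with Meox2 and, over 5 arrays, at 0.82 with Nkx3-2. With the log2 array median, the correlation was 0.64 for Meox2, 0.58 for Tbx18, 0.42 for Meox1 and 0.15 for Uncx. It was 0.05 for Foxc1, 0.01 for Foxc2, -0.36 for Tcf15, -0.65 for Nkx3-2 (5 arrays) and -0.92 for Scx. These are descriptions of few arrays.

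Genes free of overlap were also counted with each array left out in turn, a count added after the data were seen. It showed how far separation rested on Splotch null 3. Without Splotch null 3, Tcf15, Meox1, Meox2 and Tbx18 were dimmer in Splotch null with no overlap, 4 of 8 genes measured, where 11.0% of 13859 genes were. Tcf15 was the 1 such gene without Splotch null 1, Splotch null 2, wild type 1 or wild type 3, where 3.49%, 5.05%, 5.11% and 5.12% of all genes were. Without wild type 2 it was joined by Tbx18, where 5.39% were. Since these genes were chosen on the same contrast, no test is given.

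Among other genes of somite formation 0 were called by limma, and the median differences of the 5 lists lay between -0.08 and 0.02. In the sclerotome list, 12 of 15 tested genes had a lower and 3 a higher mean in Splotch null, with a median difference of -0.08. Acan, a cartilage matrix gene that belongs to later stages, was above background on 0 arrays. Zic1, expressed in dorsal neural tube as well as in sclerotome, differed by -1.03 (SE 0.64) and was lowest on Splotch null 2, the array poor in neural tube markers. Pax1, the classic sclerotome gene, differed by 0.17 (SE 0.13), and Twist1, a mesenchymal basic helix-loop-helix gene, by -0.33 (SE 0.30).

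For the cell adhesion, matrix and polarity genes of the somite epithelium, the structure that fails to form in mice without Tcf15, 7 of 15 had a lower and 8 a higher mean in Splotch null, with a median of 0.01. The boundary ligand Efnb2 differed by -0.30 (SE 0.19) and was above background on 4 arrays. The Wnt receptor Fzd7 differed by -0.13 (SE 0.13), Wnt6, an ectodermal signal for somite epithelium, by -0.12 (SE 0.14), and the polarity gene Pard3 by 0.13 (SE 0.18), with 2 usable arrays per genotype. Of the 15 genes, 0 were called and 0 were free of overlap, where 0.0% of all genes were called and 5.11% were free of overlap, so nothing is read from these counts.

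Among 13 tested genes of segmentation and of the anterior and posterior compartments, 8 had a lower and 5 a higher mean in Splotch null (median -0.08). Msgn1, a presomitic mesoderm gene, had 9.25, 8.89 and 8.79 on Splotch null 1, 2 and 3, against 8.58, 8.57 and 8.79 on wild type 1, 2 and 3. The difference of 0.33 (SE 0.16) ran opposite to that of Tcf15, and the genotypes were separated only in the next decimal. Mesp1, a gene of the forming somite, differed by -0.45 (SE 0.28), Cer1 by -0.27 (SE 0.15) and the neural crest repellent Sema3f, above background on 3 arrays, by 0.28 (SE 0.19). In the dermomyotome and myotome list, 7 of 11 tested genes had a lower and 4 a higher mean (median -0.08), and Pax7 was above background on 0 arrays. Met, a receptor needed for migration of limb muscle precursors, had 9.40, 9.38 and 9.51 in Splotch null, against 9.67, 9.64 and 9.59 in wild type, a small difference of -0.20 (SE 0.11) without overlap. Over all genes 1.89% were dimmer and 3.22% brighter in Splotch null without overlap, so nothing is read from that of Met or Msgn1. Dmrt2, needed for dermomyotome organisation, had 8.74, 9.00 and 10.22 on Splotch null 1, 2 and 3, against 10.49, 9.31 and 9.68 on wild type 1, 2 and 3. The difference was -0.50 (SE 0.44), with Splotch null 3 in the wild-type range, as for Meox1 and Meox2. Of 7 tested tendon and syndetome genes, 3 had a lower and 4 a higher mean (median 0.02). The extracellular matrix gene Tnc differed by -0.69 (SE 0.32), and the tendon gene Mkx was above background on 0 arrays.

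**Figure D4:**
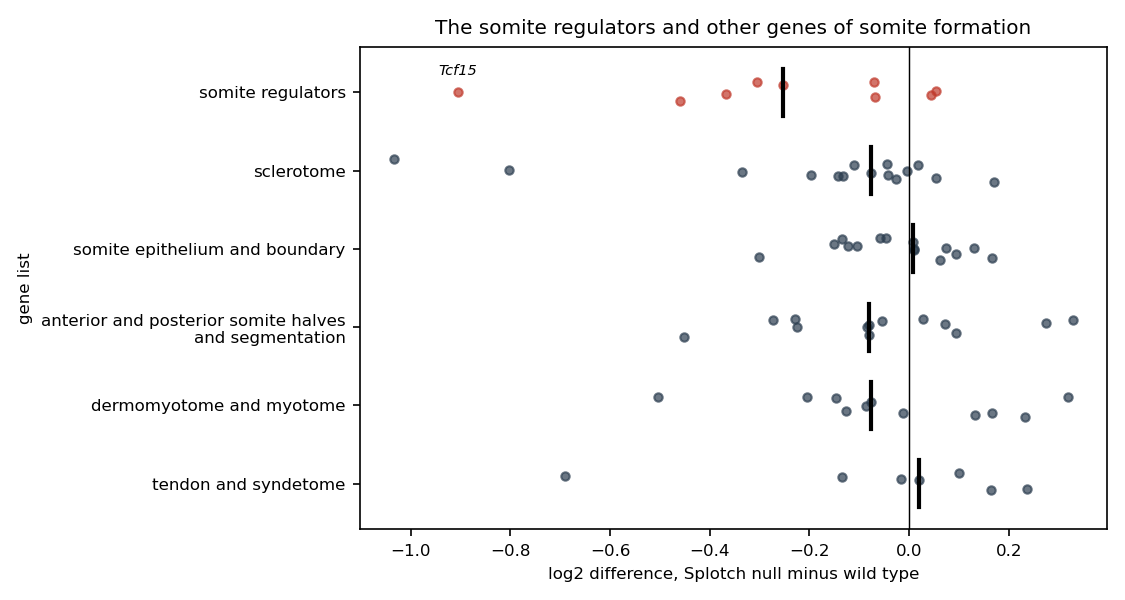
Log2 difference, Splotch null minus wild type (horizontal axis), for the 9 somite regulators (red) and for the tested genes of 5 lists of other somite genes (dark blue), 1 point per gene, spread vertically only for legibility, with a black bar at the median of each row. The red median is -0.25 and those of the lists lie between -0.08 and 0.02. Tcf15 is named.

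Relatives of these factors showed both directions. Foxd1, a forkhead gene of renal and other mesenchyme, had 9.76, 9.15 and 10.06 on Splotch null 1, 2 and 3, against 8.51, 8.94 and 8.91 on wild type 1, 2 and 3. It was brighter on every Splotch null array, with a difference of 0.87 (SE 0.25), while its relatives Foxc1 and Foxc2 each differed by -0.07. Tbx22, a T-box gene of somites and palate, had 6.69, 6.52 and 6.94 in Splotch null, against 6.47, 6.34 and 6.03 in wild type, a difference of 0.43 (SE 0.17). It was above background on 4 arrays only. The basic helix-loop-helix gene Tcf23 differed by -0.31 (SE 0.15). None of these was called over all genes. Foxd1 and Tbx22 had no overlap between genotypes, where 3.22% of all genes were brighter in Splotch null without overlap, so nothing is read from that.

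The genes whose course over the 6 arrays was most like that of Tcf15, among 2872 genes above background on all arrays with an SD of at least 0.3, were Megf6 (Pearson correlation 0.92), the somite gene Mesp1 (0.88), the neural crest gene Sox10 (0.87), the sodium channel subunit Scn2b (0.86) and the keratin Krt23 (0.84). Mesp1 and Megf6 were highest on wild type 3, at 8.11 and 8.15, where every other array read at most 7.17 for either gene. Megf6, Sox10 and Krt23 had no overlap between genotypes, where 5.11% of 13766 genes had none. They were selected for following Tcf15, which itself had no overlap, so nothing is read from that. Sox10 read 6.87, 6.92 and 6.92 in Splotch null against 8.20, 7.68 and 8.20 in wild type. For Meox2 the most similar genes were Fst, a secreted activin antagonist (0.96), the dermomyotome gene Dmrt2 (0.96), Meox1 (0.95), the mitochondrial kinase gene Ak4 (0.95) and Lrig1 (0.94). Each value rests on 6 arrays that also share differences in brightness and tissue makeup between genes, and is a description.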

How the data were processed

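RNA from 3 Splotch null and 3 wild-type samples was amplified, labelled with biotin and hybridised to one array each, per the labels' protocols. Per the file headers, CodeLink Expression Analysis 5.0.0.31312 gave a raw and a global-median normalized intensity per spot. Raw intensity fell to -16.6, so a background had been subtracted before the values were deposited, by a method not given in the sources used here. The authors' deposited value table holds intensity on a linear scale and was used as an alternative.

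Spots flagged G, L or S were kept, raised to a floor of 0.0119, increased by 50, taken to log2 and quantile-normalized. Probes with flag G or S (above background) on at least 3 of 6 arrays and at least 2 usable spots per genotype, 24434 in all, were fitted with limma 3.58.1 in R 4.3.3 (lmFit, eBayes, Benjamini-Hochberg). The brightest probe stood for a gene. Gene symbols were those of the platform table, which may be dated, brought up to date through gene identifiers and accessions. The fit was tested on simulated data in which 200 of 23319 probes were changed and noise was drawn independently for each probe. It recovered 45% of 2-fold changes with 6 false calls, and 84.5% of 4-fold changes with 10. Many changes of 2-fold or less would therefore not be called. The arrays share differences in brightness and tissue makeup between genes, which the simulation leaves out, so its rates may not hold for them. The labels give no batch and no pairing, and replicates were numbered in accession order.

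The genes, lists and tests were chosen with earlier results of these data known. All 9 genes are named. From each list up to 4 genes with the smallest unadjusted p are named, with Pax3, genes at background on all arrays, and the 5 genes most correlated with Tcf15 and with Meox2. A gene that this rule would name is not reported here. Genes in the closing observations were chosen after their values were seen.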

Additional observations from a re-analysis of the deposited data

How the results depend on the processing

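Across 19 alternatives (other scalings, the authors' normalized values, offsets, filters, variance models, array weights, probe means, array brightness as covariate and arrays left out) limma called 0 genes each time, with 116 to 988 genes at an unadjusted p under 0.05. The median difference over the 9 somite regulators lay between -0.33 and -0.07, and that over the other somite genes between -0.11 and -0.01, against -0.25 and -0.05 as reported. The median of all genes moved by under 0.1 log2 throughout (-0.001 to 0.043). Tcf15, Meox1, Meox2, Uncx and Tbx18 kept a negative difference in 19 of 19 alternatives, Foxc2 in 18 and Foxc1 in 17. Nkx3-2 kept a positive one in 16 of 18, since the filter on all 6 arrays removed it, and Scx in 17 of 19. The alternatives that turned a sign were array omissions, and for Foxc1 also array weights (0.02). Every value moved by less than the pooled SD between replicates. For single genes with an array left out this was fixed in advance. Leaving out a single array always moves a gene's difference by less than that SD. Nothing is read from it there. Without wild type 3 Uncx went from -0.37 to -0.07, and Foxc1 and Foxc2 turned positive. Scx, Tbx18 and Nkx3-2 are limited by signal near background. No paired analysis was possible because the labels give no number that pairs arrays.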

Other observations

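Splotch null 3, the array on which Tcf15 was lowest while Meox1 and Meox2 were high, was also the lowest of the 6 arrays for Twist1, Twist2, Snai1, Tnc and Foxf1. Twist1 had 10.48 on it, against 11.70 and 11.34 on Splotch null 1 and 2 and 11.41 to 11.68 on wild type. Its relative Twist2 had 9.76, against 11.22 and 11.16 on Splotch null 1 and 2 and 10.59 to 11.09 on wild type. Snai1, the zinc-finger repressor of epithelial genes, had 8.58, against 9.10 and 9.28 on Splotch null 1 and 2 and 8.91 to 9.47 on wild type. The matrix gene Tnc had 9.12, against 10.12 and 10.27 on Splotch null 1 and 2 and 10.15 to 10.76 on wild type. Foxf1, of the lateral plate, had 8.08, against 9.71 and 10.29 on Splotch null 1 and 2 and 8.65 to 9.80 on wild type. Prrx1 (7.55), Pitx1 (9.51) and Tbx5 (9.31), markers of lateral plate and limb, and Tgfb2 (7.88) were also lowest on Splotch null 3. Some other genes of mesenchyme or lateral plate did not share this. Foxd1 (10.06) and Cdh11 (9.70) were highest on Splotch null 3, and Pdgfra (12.45), Snai2 (9.13) and Tbx4 (6.91) were not lowest there. Genes of other tissues were lowest there too, such as Apoa1 (6.88), Tie1 (8.55) and Sox17 (8.46). All of these genes were picked after their values were seen. The share of all genes that were lowest on this array was not counted, so nothing is read from the list.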
